A study of Mus musculus with 15 samples.

Results

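The transcripts of 10 genes of antioxidant and ferroptosis defence were followed through fibrosis of the kidney and lung in mice given a leptin-neutralizing antibody (LepAb) or control IgG. The genes were picked by symbol (Nqo1, Hmox1, Gclc, Gclm, Srxn1, Txnrd1, Slc7a11, Gpx3, Gpx4 and Acsl4), and each symbol was found once among the 56748 genes of the deposited count table. RNA-seq was performed on 15 libraries from wild-type male C57Bl/6 mice, 3 in each of 5 groups. In the kidney, mice of 10 to 12 weeks received vehicle (WTK) or a single dose of folic acid at 200 mg/kg, with injections of control IgG (IgGK) or LepAb (LepK) at 10 mg/kg afterward and tissue collection at day 28. In the lung, mice of 12 weeks received bleomycin at 1.5 units/kg into the trachea, with IgG (IgGL) or LepAb (LepL) at 10 mg/kg and collection at day 14. The labels name no antibody for the WTK mice, and whether these mice were injected with IgG is not known here, so the IgGK to WTK difference may carry IgG as well as folic acid. Vehicle-treated lung was not analysed here, and hence a lung value can be set against IgGL only. Folic acid injures the tubules of the kidney after precipitating in them, and bleomycin is a DNA-damaging drug that inflames the lung. Both are chemical injuries of short course and are limited as models of slowly progressive human fibrosis.

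NRF2 (gene Nfe2l2) is a transcription factor that is held low by KEAP1, which targets it for degradation, and that accumulates when electrophiles or oxidants modify KEAP1. It then pairs with small MAF proteins at antioxidant response elements and raises genes for glutathione synthesis, thioredoxin recycling, and the removal of quinones and heme. Ferroptosis is an iron-dependent death driven by peroxides of membrane phospholipids. It is opposed by cystine import, glutathione, and GPX4, and it is favored by ACSL4, which loads polyunsaturated fatty acids into those membranes. The injured tubule of the kidney is a tissue in which ferroptosis has been widely studied. Gpx3 and Acsl4 belong to peroxide removal and to ferroptosis, respectively, rather than to the classical NRF2 targets.

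The members lie on 7 chromosomes in the GRCm39 assembly that the submitters' processing notes name. Srxn1 is at chr2:151947436-151953296, plus strand, Txnrd1 at chr10:82669785-82733546, plus strand, Gclm at chr3:122039206-122064381, plus strand, and Gclc at chr9:77661817-77701767, plus strand. Slc7a11 is at chr3:49846975-50398063, minus strand, Gpx3 at chr11:54793279-54801203, plus strand, Gpx4 at chr10:79883000-79892273, plus strand, and Acsl4 at chrX:141100989-141173531, minus strand. Nqo1 (chr8:108114857-108129838, minus strand) and Hmox1 (chr8:75820249-75827217, plus strand) share a chromosome. All are protein coding. Within the spans of Gclm, Txnrd1, and Slc7a11 the table holds smaller genes, with means of at most 19.0 counts per library, and as the libraries kept no strand their reads could not be separated. Gpx4 has a transcribed pseudogene copy, Gpx4-ps2, with a mean of 2450 counts against 18840 for Gpx4, so reads may have been split between them and the Gpx4 values are uncertain to that extent.

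The sequences before the transcription starts were read for the antioxidant response element core. RefSeq promoters (assembly GRCm38.p6, 250 bases before the start) were found for 8 of the 10 members and not for Hmox1 and Gclc. Some members have several starts, which gave 13 windows. Both strands were searched for TGACNNNGC and for the looser TGAGNNNGC, and no run of bases can match both. Of 32841 mouse promoter windows of the same length, 10.2% held the first, 14.4% the second, and 23% either. A match was found in 5 of the 8 members (Gclm, Srxn1, Txnrd1, Slc7a11, and Acsl4) and in 5 of the 13 windows, and none in those of Nqo1, Gpx3, and Gpx4. Srxn1 had 2 matches, at bases 93 to 101 and 206 to 214 counted from the far end of the window. The windows of Srxn1 and of the second Txnrd1 start are shown because Srxn1 was the gene nearest to Txnrd1 in its profile over all libraries, that of Gclm because it carried the stricter core, and that of Gpx3 because the gene was called in every comparison and held neither core. The matched bases are in capitals and everything else is in lower case, 5′ to 3′ on the strand of the gene.
Srxn1 (chr2:152105274-152105523, plus strand): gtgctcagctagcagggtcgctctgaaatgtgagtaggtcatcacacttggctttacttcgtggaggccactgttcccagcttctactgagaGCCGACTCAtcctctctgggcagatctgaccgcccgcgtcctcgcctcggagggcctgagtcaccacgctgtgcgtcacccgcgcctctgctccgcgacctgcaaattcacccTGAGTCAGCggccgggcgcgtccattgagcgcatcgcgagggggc
Txnrd1 (chr10:82858956-82859205, plus strand): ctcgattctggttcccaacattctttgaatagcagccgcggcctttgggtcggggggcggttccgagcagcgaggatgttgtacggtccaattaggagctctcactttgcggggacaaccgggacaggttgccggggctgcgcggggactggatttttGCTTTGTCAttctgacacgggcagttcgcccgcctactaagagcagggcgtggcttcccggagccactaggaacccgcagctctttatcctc
Gclm (chr3:122245307-122245556, plus strand): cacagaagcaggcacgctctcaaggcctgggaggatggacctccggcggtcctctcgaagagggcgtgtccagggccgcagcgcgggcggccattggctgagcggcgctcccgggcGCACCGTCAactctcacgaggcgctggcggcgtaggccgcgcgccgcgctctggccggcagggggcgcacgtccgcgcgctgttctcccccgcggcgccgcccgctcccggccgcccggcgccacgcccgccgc
Gpx3 (chr11:54902604-54902853, plus strand): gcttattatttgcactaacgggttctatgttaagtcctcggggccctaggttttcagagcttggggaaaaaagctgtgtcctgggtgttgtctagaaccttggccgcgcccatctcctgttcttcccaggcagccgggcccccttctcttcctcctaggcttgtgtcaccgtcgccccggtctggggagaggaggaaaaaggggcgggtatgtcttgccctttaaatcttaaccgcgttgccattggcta
In the Srxn1 window the capitals read TGAGTCGGC on the minus strand and TGAGTCAGC on the plus strand. In Txnrd1 and Gclm they read TGACAAAGC and TGACGGTGC, both on the strand opposite to the gene. A match describes letters in a window and is not evidence of binding.

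Total counts ranged from 25913969 to 38924788 per library. Values are normalized CPM, counts scaled by the library total and a TMM factor from edgeR. These factors ran from 0.844 to 0.858 in WTK and from 1.14 to 1.18 in IgGK. With the library total as the only scaling, the median log2 fold change of all genes for IgGK against WTK was 0.48 in place of 0.04, so kidney values are relative to the bulk of the genes. The labelled tissues carried their markers. Proximal tubule genes summed to at least 13218 normalized CPM in kidney and to at most 1015 in lung. Alveolar type 2 genes summed to at least 7516 in lung and to at most 2739 in kidney. Some libraries stood apart from their group. IgGK replicates 1 and 2 held 644 and 829 normalized CPM of 8 adrenal cortex genes, against 17.4 in IgGK replicate 3 and at most 8.09 in WTK and LepK. IgGL replicate 3 held 6524 normalized CPM of 7 erythroid genes, where the other lung libraries held 863 to 2217, and 637 of neutrophil genes against at most 275.

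The order of levels was read from the deposited FPKM, which divides by gene length. In WTK kidney Gpx3 was far above the other members at 11799 ± 512 FPKM (SD, n = 3), and it took 2.20% of all counted reads. Gpx4 followed at 435 ± 10.5 FPKM. Then came Gclc, Gclm, Nqo1, Srxn1, Txnrd1, Hmox1, and Acsl4, from 58.3 down to 5.79 FPKM, and Slc7a11 was last at 0.0048. Neighbours in that order had ranges apart except for Gclc with Gclm and Srxn1 with Txnrd1. The same order of the means held in IgGK and LepK, where Gclm with Nqo1 and Srxn1 with Txnrd1 overlapped. In IgGL, Gpx3 and Gpx4 again led, at 727 ± 125 and 127 ± 4.40 FPKM. Hmox1 followed Gclc there by its mean, Nqo1 was next to last at 3.82 ± 0.845 FPKM, and Slc7a11 was last at 0.822 ± 0.329 FPKM. From Gclc through Hmox1, Txnrd1, and Acsl4 to Srxn1, neighbours in IgGL had overlapping ranges.

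To ask how the kidney changed after folic acid, IgGK was compared with WTK. Calls came from edgeR's quasi-likelihood test on the 19593 genes left by the low-count filter, and needed a Benjamini-Hochberg adjusted p below 0.05 together with a log2 change beyond 0.5 in either direction. Of the 10 members 4 were called, where 37.3% of all genes tested were. Slc7a11 and Acsl4 passed as higher, as did 21.7% of all genes, and Gpx3 and Gclm fell, as did 15.6%. All 10 members passed the filter, but Slc7a11 did so only through injured kidneys (6 of 6 libraries at or over the minimum of 0.336 CPM, and 0 of 3 in WTK). Its differences from WTK were therefore partly fixed by the filter, are given as a description, and leave 3 calls among the other 9 members. The groups did not overlap in 7 members, against 62.6% of all genes, and the members' median log2 fold change was −0.08 against 0.04 for all genes. With the library total as the only scaling, 4 members, Slc7a11 among them, were again called, 3 higher and 1 lower in place of 2 and 2. All genes split into 7803 higher and 1178 lower in place of 4253 and 3057.

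The question of what LepAb did after folic acid was addressed by LepK against IgGK. Of the members 3 were called, where 10.4% of all genes were. Gpx3 and Gclm were higher in LepK, as were 4.38% of all genes, and Slc7a11 was lower, as were 5.99%. The groups did not overlap in 5 members, against 37.4% of all genes, and the median of the members was 0.04 against −0.01. Against WTK, LepK passed in 2 members, or in 1 of the 9 besides Slc7a11, where 22.5% of all genes were called. Slc7a11, under the limit just given, was higher, as were 15.2% of all genes, and Gpx3 lower, as were 7.30%. No overlap was seen there in 7 members, against 50.2% of all genes. Without both IgGK libraries high in adrenal cortex genes, IgGK replicate 3 stands alone in its group, so calls cannot be judged. The values for IgGK against WTK were then −1.25 (Gpx3), −0.80 (Gclm), and 0.49 (Acsl4). Those for LepK against IgGK were 0.74 (Gpx3), 0.58 (Gclm), and −2.19 (Slc7a11). These 3 comparisons share libraries, so they are not independent of one another. In whole tissue, fewer cells of a type and less RNA per cell cannot be told apart.

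**Figure D1:**
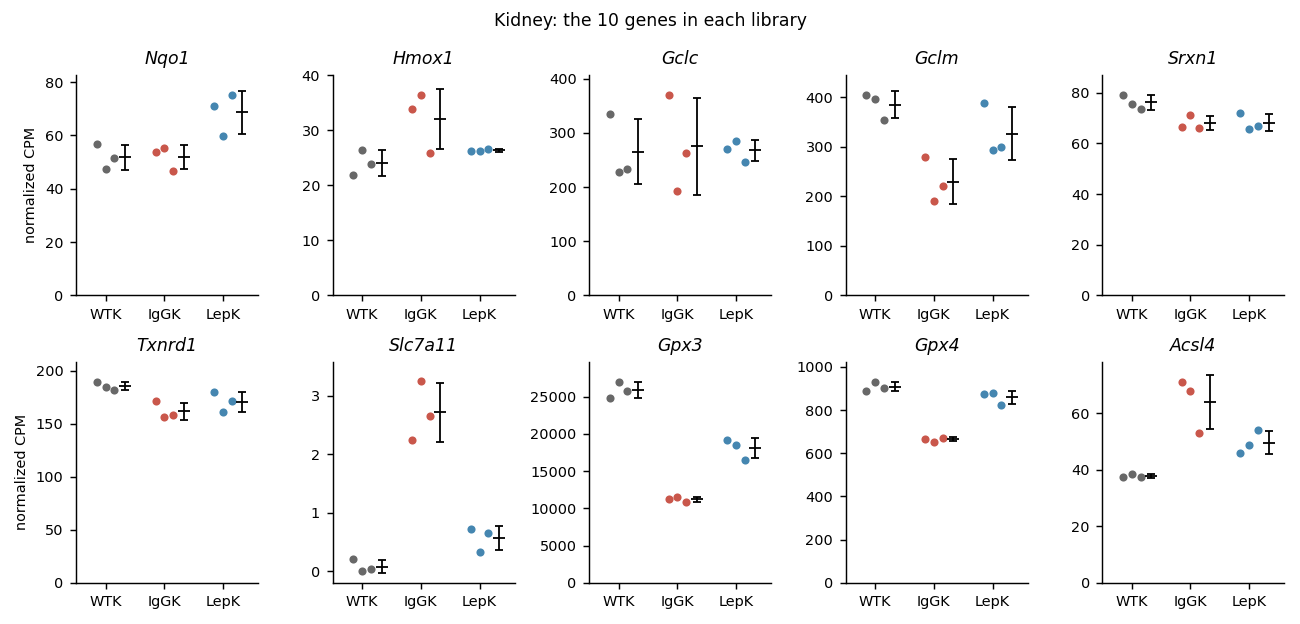
Normalized CPM of the 10 genes in the kidney libraries of WTK, IgGK, and LepK (points, 3 per group; bars, mean ± SD; vertical axes from 0). Gpx3 and Gpx4 were lowest in IgGK, with LepK between IgGK and WTK, and the means of Slc7a11 and Acsl4 were highest in IgGK.

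Gpx3, the secreted glutathione peroxidase that the proximal tubule releases into plasma, had the largest difference among the abundant members. It stood at 24829, 26991 and 25786 normalized CPM in WTK replicates 1 to 3. In IgGK it stood at 11193, 11499.6 and 10876, and in LepK at 19136, 18511 and 16543. All 3 groups were apart, with LepK between the others. Gpx3 fell to 0.433 of its WTK level in IgGK (log2 fold change −1.21 ± 0.077 (SE), edgeR adjusted p = 1.28e-07). LepK was 1.61-fold higher than IgGK (log2 fold change 0.69 ± 0.077 (SE), edgeR adjusted p = 1.90e-04). It was still below WTK (log2 fold change −0.52 ± 0.076 (SE), edgeR adjusted p = 2.32e-04). That last call was lost without WTK replicate 2 (−0.48) and without LepK replicate 3 (−0.46), where the value no longer passed 0.5, and under library-size scaling (−0.26). The proximal tubule markers moved alongside. Their sum was 52272 to 54425 normalized CPM across WTK libraries, 13218 to 20269 across IgGK, and 28058 to 37504 across LepK. All 12 were called lower in IgGK than in WTK and 9 of 12 higher in LepK than in IgGK. Their part in the Gpx3 difference was not tested.

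Gpx4, the selenoenzyme that reduces phospholipid hydroperoxides within membranes, followed a similar course with a smaller size. Its levels were 890.0, 930.4 and 901 normalized CPM in WTK, 667, 654 and 672 in IgGK, and 876, 878 and 822 in LepK. The IgGK libraries were below all others. The difference between IgGK and WTK passed the adjusted p but not the fold threshold (log2 fold change −0.45 ± 0.061 (SE), edgeR adjusted p = 4.80e-05), as did that between LepK and IgGK (log2 fold change 0.37 ± 0.061 (SE), edgeR adjusted p = 0.00158). LepK lay just below WTK, without overlap (log2 fold change −0.079 ± 0.061 (SE), edgeR adjusted p = 0.342). Under library-size scaling the IgGK to WTK value was −0.0083. Gpx4-ps2, its pseudogene copy, had log2 fold changes of −0.59 (edgeR adjusted p = 2.90e-04, called) and 0.48 (edgeR adjusted p = 0.00594) in the same 2 comparisons.

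Slc7a11 encodes the light chain of the cystine/glutamate antiporter, which imports the cystine used for glutathione. It was barely detected in WTK, with 5, 0, and 1 counts. The 0 of 30033783 counts in WTK replicate 2 allows up to 3 counts, or 0.0999 CPM, by counting error only. It had 68, 114, and 92 counts in IgGK, and 22, 10, and 18 in LepK. The 3 groups were apart. As normalized CPM, IgGK held 2.24, 3.26 and 2.66, and LepK 0.724, 0.335 and 0.665. The fitted log2 difference from WTK was 5.04 ± 0.67 (SE) in IgGK and 2.80 ± 0.72 (SE) in LepK, both described without a test because of the filter. The size of both differences rested on WTK replicate 1, as without it the values were 6.89 and 4.66. The LepK libraries met the filter as did those of IgGK, and LepK was 4.71-fold lower than IgGK (log2 fold change −2.24 ± 0.52 (SE), edgeR adjusted p = 0.0096). Without both IgGK libraries high in adrenal cortex genes, which leaves IgGK replicate 3 alone in its group, the value was −2.19. Even in IgGK the level stayed at 0.157 ± 0.0294 FPKM. Macrophage markers summed to 195 to 222 normalized CPM across WTK libraries, 1771 to 2238 across IgGK, and 631 to 941 across LepK, and 10 of the 11 tested were called lower in LepK than in IgGK. Their part in the Slc7a11 values was not tested.

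Gclm, the modifier subunit of glutamate-cysteine ligase, and Gclc, its catalytic subunit, did not move alike. Gclm was at 406, 396 and 354 normalized CPM in WTK, 279, 191 and 221 in IgGK, and 388, 294 and 299.5 in LepK. IgGK was below both other groups without overlap, and LepK overlapped WTK. It fell in IgGK against WTK (log2 fold change −0.74 ± 0.14 (SE), edgeR adjusted p = 4.89e-04). It was 1.42-fold higher in LepK than in IgGK (log2 fold change 0.51 ± 0.14 (SE), edgeR adjusted p = 0.0196), close to the threshold of 0.5. The second call was lost without IgGK replicate 2 (edgeR adjusted p = 0.0734), IgGK replicate 3 (0.0699), or LepK replicate 1 (0.0803), and under library-size scaling both values (−0.31 and 0.32) fell short of 0.5. Gclc was at 335, 227 and 234 in WTK, 371, 192 and 263 in IgGK, and 271, 285 and 247 in LepK. Its groups overlapped in every kidney comparison, and its log2 fold changes lay between −0.041 and 0.052, with standard errors of 0.20.

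Acsl4, the acyl-CoA synthetase that favors ferroptosis, was at 37.5, 38.6 and 37.5 normalized CPM in WTK, 71.1, 67.9 and 53.0 in IgGK, and 46.0, 48.6 and 54.1 in LepK. Every injured kidney was above every vehicle kidney, and IgGK replicate 3 lay within the LepK range. Acsl4 rose 1.69-fold in IgGK against WTK (log2 fold change 0.76 ± 0.10 (SE), edgeR adjusted p = 4.27e-05). For LepK against IgGK (log2 fold change −0.37 ± 0.10 (SE), edgeR adjusted p = 0.0221) and LepK against WTK (log2 fold change 0.39 ± 0.10 (SE), edgeR adjusted p = 0.00977) the fold threshold was not reached. Under library-size scaling Acsl4 was called in both, at −0.55 and 0.65, where 13.2% and 27.0% of all genes were. IgGK replicates 1 and 2, which held the adrenal cortex transcripts, were its highest libraries. Without both, which leaves IgGK replicate 3 alone in its group, the IgGK to WTK value was 0.49 and the LepK to IgGK value was −0.088. The part of those transcripts in the Acsl4 difference was not tested.

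Of the inducible detoxifying enzymes, Nqo1 encodes a quinone reductase and Hmox1 the heme oxygenase that frees iron from heme. Nqo1 was at 56.6, 47.3 and 51.4 normalized CPM in WTK, 53.9, 55.1 and 46.7 in IgGK, and 71.0, 59.7 and 75.3 in LepK. LepK was above both other groups without overlap. The difference to IgGK (log2 fold change 0.40 ± 0.10 (SE), edgeR adjusted p = 0.013) and to WTK (log2 fold change 0.41 ± 0.10 (SE), edgeR adjusted p = 0.00628) did not pass the fold threshold, and IgGK and WTK overlapped (log2 fold change 0.0033 ± 0.10). The LepK to WTK difference was called under library-size scaling (0.67) and without LepK replicate 2 (0.501). Under library-size scaling the IgGK to WTK value was 0.44. Hmox1 was at 21.8, 26.5 and 23.9 in WTK, 33.8, 36.5 and 25.9 in IgGK, and 26.2, 26.2 and 26.7 in LepK. IgGK replicate 3 lay within the WTK range while replicates 1 and 2 lay above it. The value for IgGK against WTK was 0.41 ± 0.12 (edgeR adjusted p = 0.00966), short of the fold threshold. It was called under library-size scaling (0.86) and without IgGK replicate 3 (0.55). Replicates 1 and 2 of IgGK are those that held the adrenal cortex transcripts. Without both, which leaves IgGK replicate 3 alone in its group, the value was 0.11. The part of those transcripts in the Hmox1 difference was not tested.

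The thioredoxin branch had small differences. Txnrd1 encodes cytosolic thioredoxin reductase, a selenoenzyme, and Srxn1 encodes sulfiredoxin, which restores overoxidized peroxiredoxins. Txnrd1 was at 189, 185 and 182 normalized CPM in WTK, 171, 156 and 158 in IgGK, and 179.9, 161 and 171 in LepK. Srxn1 was at 79.3, 75.5 and 73.6 in WTK, 66.5, 71.2 and 66.1 in IgGK, and 72.0, 65.6 and 67.0 in LepK. Both had all WTK libraries above all IgGK libraries by a narrow margin. The log2 fold changes for IgGK against WTK were −0.20 and −0.16 (edgeR adjusted p = 0.0233 and 0.0477), and they turned to 0.24 and 0.28 under library-size scaling. For LepK against IgGK they were 0.079 ± 0.065 and 0.0055 ± 0.064. These libraries therefore showed no difference past the fold threshold for either gene, with TMM or library-size scaling.

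**Figure D2:**
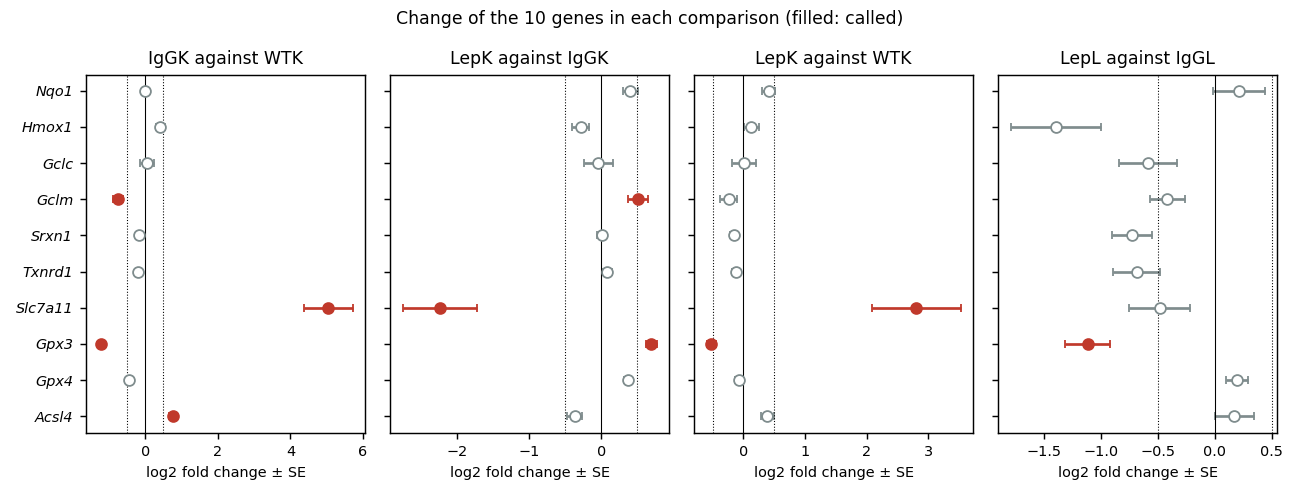
Log2 fold change ± SE of the 10 genes in 4 comparisons (kidney minus lung not drawn), on a horizontal axis that differs between panels. Filled points were called by edgeR's quasi-likelihood test and dotted lines mark 0.5 in size. The filled Slc7a11 points against WTK are a description only, because of the low-count filter. Gpx3 is filled in every panel and lies right of 0 only in LepK against IgGK.

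The wider pathway was described from 7 gene lists chosen beside the members. The counts of its genes called stand against 21.7% higher and 15.6% lower over all genes in IgGK against WTK, and 4.38% and 5.99% in LepK against IgGK. Of the NRF2 regulators, Nfe2l2 itself was at 89.1 ± 7.73 normalized CPM in WTK and 103 ± 4.64 in IgGK (SD, n = 3), a log2 fold change of 0.21 that was not called, and Keap1 differed by −0.075. Of 12 regulators 1 rose and 2 fell, with a median of −0.21. The riser was Maff, a small MAF partner of NRF2, from 1.87 ± 0.555 to 8.75 ± 0.646 normalized CPM (2.23 (adjusted p = 3.40e-06) on the log2 scale by edgeR). Sqstm1, the adaptor that binds KEAP1, and Cul3, the scaffold of its ubiquitin ligase, were called lower at −0.70 (adjusted p = 7.73e-06) and −0.69 (adjusted p = 2.32e-05). None of the 12 was called in LepK against IgGK by edgeR or by DESeq2, with 4 at an unadjusted p under 0.05 in edgeR.

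Other NRF2 target genes went both ways. Of 30 tested, 11 rose and 9 fell in IgGK against WTK, with a median of −0.094. Those with the largest changes were Akr1b8, an aldo-keto reductase, at 2.44 (adjusted p = 4.09e-08), Cbr3, a carbonyl reductase, at 2.28 (adjusted p = 1.50e-05), and Ces1g, a carboxylesterase, at −2.08 (adjusted p = 7.42e-04). Akr1b8 averaged 4.89 ± 0.888 normalized CPM across WTK libraries, 26.4 ± 0.258 across IgGK, and 13.1 ± 1.11 across LepK. In LepK against IgGK 3 of the 30 rose and 2 fell, the latter being Cbr3 at −1.14 (adjusted p = 0.00817) and Akr1b8 at −1.01 (adjusted p = 2.71e-04), while Ces1g was higher at 1.52 (adjusted p = 0.0183).

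Genes of glutathione synthesis and NADPH supply, listed together with genes of glutathione breakdown (Ggt1, Ggct, Chac1, and Chac2), were mostly lower. In IgGK against WTK 1 of 18 rose and 9 fell, with a median of −0.64 against 0.04 for all genes. Cbs, which starts transsulfuration of homocysteine toward cysteine, was at −1.81 (adjusted p = 3.28e-06). Ggt1, the brush-border enzyme that cleaves extracellular glutathione, was at −1.41 (adjusted p = 6.03e-07), and Chac2, which degrades glutathione, was at −1.31 (adjusted p = 2.52e-05). In LepK against IgGK 7 of 18 were called, each of them higher (among them Cth, which completes transsulfuration, at 0.73 (adjusted p = 7.29e-04)), with a median of 0.29 against −0.01. Cbs was higher in LepK at 0.97 (adjusted p = 0.00261). Both Cbs and Ggt1 are genes of the proximal tubule, whose markers moved in the same directions, and the part of that was not tested.

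Other glutathione peroxidases and peroxiredoxins showed the same split, in a list that also holds catalase, superoxide dismutases, thioredoxins, Txnrd2, Txnrd3, Txnip, and glutaredoxins. In IgGK against WTK 3 of the 21 tested genes of this mixed list rose and 12 fell, with a median of −0.57. Gpx6 was lower at −1.57 (adjusted p = 4.29e-07), whereas Gpx7 and Gpx8, the peroxidases of the endoplasmic reticulum, were higher at 2.63 (adjusted p = 6.02e-07) and 1.34 (adjusted p = 1.55e-06). In LepK against IgGK 5 of 21 rose and 1 fell. Gpx6 was higher at 1.05 (adjusted p = 2.18e-04), as was Sod3, the extracellular superoxide dismutase, at 0.76 (adjusted p = 2.23e-04), and the faller was Gpx7 at −0.88 (adjusted p = 0.00645). Of 13 genes of selenium transport and selenoprotein synthesis, 1 rose and 7 fell in IgGK against WTK, with a median of −0.72, and 4 were called in LepK against IgGK, each higher. Selenop, the secreted selenium carrier, averaged 2375 ± 161 normalized CPM across WTK libraries, 789 ± 131 across IgGK, and 976 ± 231 across LepK. It was called against WTK in both IgGK at −1.59 (adjusted p = 2.73e-06) and LepK at −1.28 (adjusted p = 5.44e-05). Lrp2, the endocytic receptor megalin, is both on this list and among the proximal tubule markers, which fell in IgGK in 12 of 12 and were higher in LepK in 9 of 12, and their part in the peroxidase and selenium values was not tested. Sephs2, which makes the selenium donor, was higher in LepK than in IgGK at 0.68 (adjusted p = 2.87e-04).

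The ferroptosis lists were mixed in direction. Of 26 other defence genes 6 rose and 9 fell in IgGK against WTK. Hspb1, a small heat shock protein, was higher at 2.79 (adjusted p = 1.35e-08), and Gch1, which makes tetrahydrobiopterin, at 1.81 (adjusted p = 7.44e-04). In LepK against IgGK 1 of 26, Cisd1, a mitochondrial iron-sulfur protein, was called (higher, 0.61 (adjusted p = 2.60e-04)). Of 29 promoting genes 4 rose and 10 fell in IgGK against WTK. Trf, which carries iron in plasma, was higher at 2.57 (adjusted p = 4.38e-04), and Agps, of ether lipid synthesis, and Por, the cytochrome P450 reductase that feeds lipid peroxidation, were lower at −1.85 (adjusted p = 5.83e-06) and −1.30 (adjusted p = 5.58e-07). In LepK against IgGK 4 of 29 were called, each higher, Tfrc, the transferrin receptor, among them at 0.71 (adjusted p = 0.00107). In LepK against WTK 14 of 30 other NRF2 targets were called (10 higher, 4 lower), as were 6 of 18 glutathione genes (1 higher, 5 lower). Over all genes 22.5% were called there (15.2% higher and 7.30% lower).

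**Figure D3:**
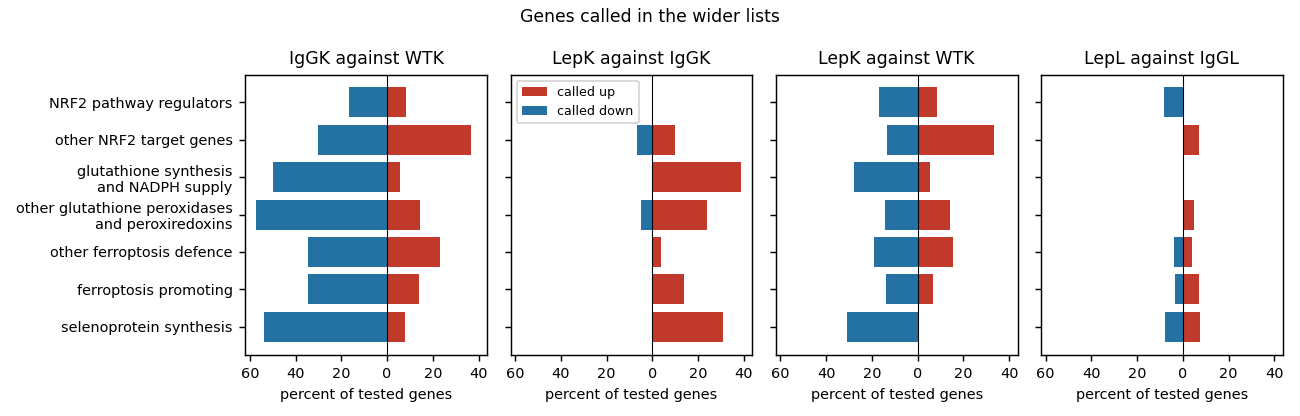
Percent of the tested genes of each wider list that were called higher (right) or lower (left) in each comparison. The glutathione, peroxidase, and selenium lists lean left in IgGK against WTK and right in LepK against IgGK. At most 3 genes of any list were called in the lung, where 4.14% of all genes were.

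In the lung, the question was what LepAb did after bleomycin. Of the 10 members 1 was called in LepL against IgGL, Gpx3 (lower), where 4.14% of the 19617 genes tested were (1.78% higher and 2.36% lower). The groups did not overlap in 5 members, against 33.3% of all genes. The members' median log2 fold change was −0.54 against 0.0033 for all genes, and 7 of 10 were lower in LepL. Calls in this comparison depended on single libraries. Without IgGL replicate 1, 6 members and 17.3% of all genes were called, and without any other single library edgeR called no member (4 or 5 at an unadjusted p under 0.05, and 1 to 3 called by DESeq2) and at most 22 genes of all.

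Gpx3 was at 1514, 2126 and 2141 normalized CPM in IgGL and 727, 1089 and 843 in LepL. Each IgGL library was above each LepL library. It was 2.17-fold lower in LepL (log2 fold change −1.12 ± 0.20 (SE), edgeR adjusted p = 0.0327). The value was −0.995 to −1.29 with any 1 library left out, but the adjusted p rose to between 0.0551 and 0.176 when the library left out was any but IgGL replicate 1. Fibroblast markers summed to 7822 to 8906 normalized CPM in IgGL and 3604 to 4846 in LepL, with 6 of 10 called lower, and 8 of the 12 proximal tubule markers were under 1 normalized CPM in IgGL. The part of fibroblasts in the Gpx3 difference was not tested.

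Of the NRF2 targets Hmox1, Srxn1, Txnrd1, Gclc, and Gclm had higher means in IgGL than in LepL, with a wide spread. Hmox1 was at 74.0, 150.1 and 293 normalized CPM in IgGL and 69.1, 65.1 and 61.4 in LepL (log2 fold change −1.40 ± 0.39 (SE), edgeR adjusted p = 0.0706). Srxn1 was at 71.7, 96.4 and 123 in IgGL and 61.6, 59.3 and 54.5 in LepL (log2 fold change −0.73 ± 0.18 (SE), edgeR adjusted p = 0.052). Txnrd1 was at 176, 263 and 342 in IgGL and 169.8, 162 and 152 in LepL (log2 fold change −0.69 ± 0.21 (SE), edgeR adjusted p = 0.0813). In these 3 genes every IgGL library lay above every LepL library, IgGL replicate 1 by little, yet none passed the adjusted p. Gclc was at 272, 384 and 624 in IgGL and 309, 274 and 267 in LepL (log2 fold change −0.59 ± 0.26 (SE), edgeR adjusted p = 0.181). Gclm was at 54.9, 73.2 and 84.7 and 53.3, 56.3 and 49.9, respectively (log2 fold change −0.42 ± 0.15 (SE), edgeR adjusted p = 0.124). Both overlapped, with IgGL replicate 1 within the LepL range. Without IgGL replicate 1, the 5 genes were called at −1.76 (Hmox1), −0.91 (Srxn1), −0.91 (Txnrd1), −0.83 (Gclc), and −0.57 (Gclm), all with edgeR adjusted p of at most 0.0157. DESeq2 on all 6 libraries called Srxn1 and Txnrd1 beside Gpx3, where it called 11.98% of all genes.

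The members varied more between IgGL libraries than between LepL libraries. The coefficient of variation (SD over mean) of the members had a median of 25.98% in IgGL, where all genes had 17.9%, and of 7.10% in LepL, where all genes had 12.5%. It was larger in IgGL for 9 of 10 members, against 65.3% of all genes. Hmox1 had the widest spread, 64.4% in IgGL. Of the 3 IgGL libraries, replicate 3 held the highest value in 9 of 10 members, against 36.7% of all genes, and replicate 1 the lowest in 9 of 10, against 36.3%. Gpx4 was the exception to both. Replicate 3 was also the library with the most erythroid and neutrophil transcripts. Without it, Hmox1 stood at −0.79 (edgeR adjusted p = 0.126). Macrophage markers summed to 4069 to 6793 normalized CPM in IgGL, lowest in replicate 3, and to 8093 to 8386 in LepL, although 10 of the 12 taken singly were lower in LepL, 3 of them called. Of 10 neutrophil markers 5 were called lower in LepL. The part of any of these cells was not tested.

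**Figure D4:**
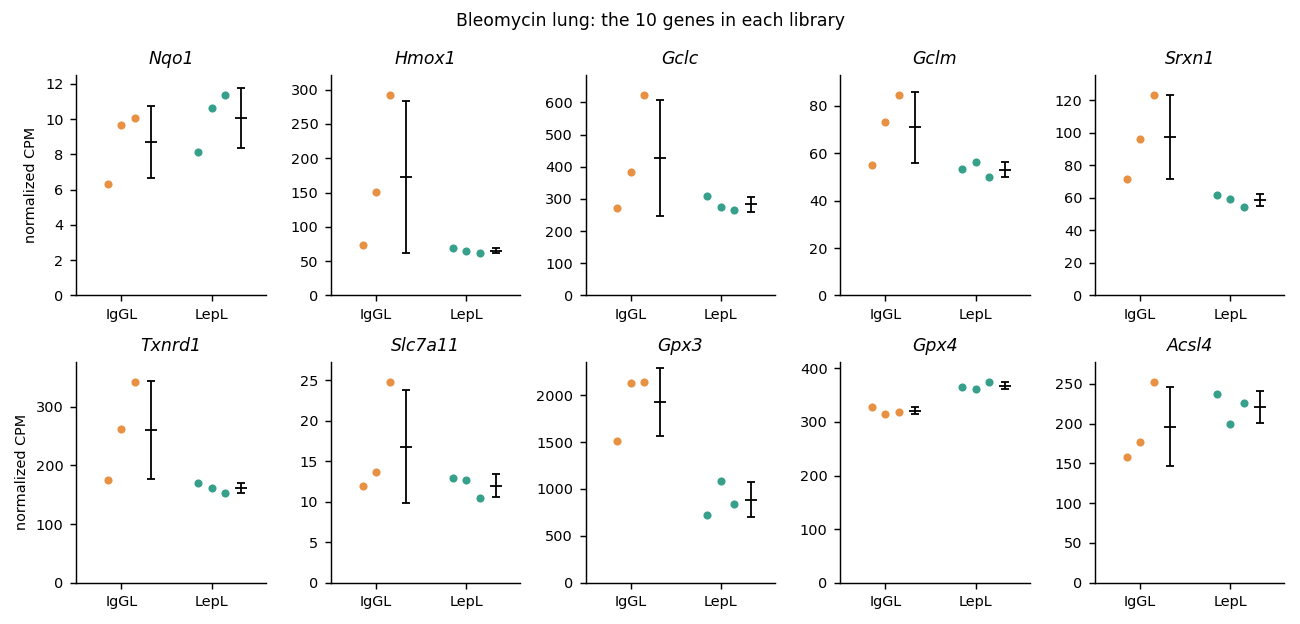
Normalized CPM of the 10 genes in the lung libraries of IgGL and LepL (points, 3 per group in order of replicate; bars, mean ± SD; vertical axes from 0). IgGL libraries spread widely in Hmox1, Gclc, Srxn1, and Txnrd1, LepL libraries lay close together, and Gpx3 was lower in each LepL library.

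None of the remaining members was called, and the mean of Slc7a11 was also higher in IgGL than in LepL. Slc7a11 was at 11.9, 13.7 and 24.8 normalized CPM in IgGL and 12.9, 12.6 and 10.4 in LepL (log2 fold change −0.48 ± 0.27 (SE), edgeR adjusted p = 0.276). Acsl4 was at 158, 177 and 252 and 237, 199 and 226 (log2 fold change 0.17 ± 0.17 (SE), edgeR adjusted p = 0.558). The ranges of both genes overlapped. Gpx4 was at 328, 315 and 319 in IgGL and 366, 362 and 375 in LepL, apart but by a small margin (log2 fold change 0.20 ± 0.10 (SE), edgeR adjusted p = 0.228). Nqo1 was at 6.34, 9.66 and 10.04 in IgGL and 8.13, 10.6 and 11.4 in LepL (log2 fold change 0.21 ± 0.23 (SE), edgeR adjusted p = 0.592), and its groups overlapped. The counts called in the wider lists stand against 1.78% higher and 2.36% lower over all genes in the lung. Of 28 other NRF2 targets 2 rose, Gsta2, a glutathione transferase, at 1.80 (adjusted p = 0.0337) and Ptgr1, a prostaglandin reductase, at 0.55 (adjusted p = 0.0347). Of 12 regulators Maff fell at −0.75 (adjusted p = 0.0365), and Nfe2l2 had a value of 0.41 (adjusted p = 0.0969). None of the 18 glutathione genes was called by edgeR, with 6 at an unadjusted p under 0.05, and DESeq2 called 2. Cat, catalase, was higher at 0.98 (adjusted p = 0.0413). Of 29 ferroptosis promoting genes Slc39a14, an importer of zinc and iron, was lower at −1.81 (adjusted p = 0.0327), and Tfrc and Acsl1, a long-chain acyl-CoA synthetase, were higher at 0.94 (adjusted p = 0.0327) and 0.52 (adjusted p = 0.0372). Of 26 other defence genes Cisd1 was higher at 0.58 (adjusted p = 0.0391) and Mboat1, a lysophospholipid acyltransferase, lower at −0.94 (adjusted p = 0.0327), and of the 13 selenium genes Sepsecs, which makes selenocysteine on its tRNA, was higher at 0.52 (adjusted p = 0.0386) and Lrp8, a receptor for Selenop, lower at −1.87 (adjusted p = 0.0499).

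Whether LepAb acted differently in the 2 organs was tested as a kidney minus lung difference of log2 fold changes, with the 12 libraries of injured tissue in a single edgeR model. Of the 10 members 4 were called at an adjusted p under 0.05, where 7.12% of the 21488 genes tested were. The kidney effect was the more positive in 3 of them, against 3.51% of all genes, and the more negative in 1, against 3.62%. The members' median difference was 0.67 against −0.01 for all genes. Gpx3 had the largest difference, at 1.84 ± 0.24 (edgeR adjusted p = 0.00445), with LepAb kidneys above and LepAb lungs below their IgG controls. Gclm (0.96 ± 0.24, edgeR adjusted p = 0.0348) and Srxn1 (0.77 ± 0.21, edgeR adjusted p = 0.0429) had differences of the same sign. Slc7a11 had one of the opposite sign (−1.72 ± 0.44, edgeR adjusted p = 0.0368), its kidney effect being the more negative. Under library-size scaling Gclm (0.70, edgeR adjusted p = 0.0522) and Srxn1 (0.51, edgeR adjusted p = 0.107) were not called. Gpx3 and Slc7a11 still were, as was Acsl4 (−0.76, edgeR adjusted p = 0.0487), where 10.3% of all genes were. Txnrd1, at 0.80 ± 0.24 (edgeR adjusted p = 0.0649), and Hmox1, at 1.15 ± 0.47 (edgeR adjusted p = 0.144), were not called. Both were called without IgGL replicate 1 (1.02 and 1.51, edgeR adjusted p = 0.00127 and 0.00431), where 16.9% of all genes were, and Hmox1 was at 0.50 without IgGL replicate 3. The Gpx3 call held with any 1 library left out (edgeR adjusted p at most 0.0154), whereas those of Gclm, Srxn1, and Slc7a11 were lost in 9, 11, and 10 of the 12 such fits. Without both IgGK libraries high in adrenal cortex genes, IgGK replicate 3 stands alone in its group, so effect sizes only are given. They were 1.87 (Gpx3), 1.01 (Gclm), 0.80 (Srxn1), and −1.70 (Slc7a11).

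**Figure D5:**
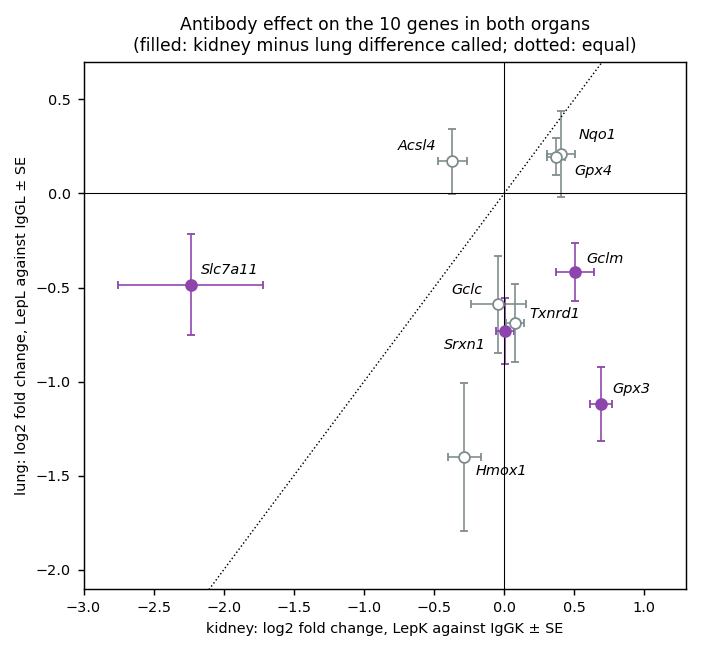
Log2 fold change ± SE of LepAb against IgG in kidney (horizontal) and in lung (vertical) for the 10 genes. Filled points had a called kidney minus lung difference (Gclm, Srxn1, Slc7a11, and Gpx3), and the dotted line marks equal effects; Gpx3 lies right of 0 in kidney and below 0 in lung.

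For each member, the genes with the most similar profile were sought among 14361 genes, by the root mean square difference of log2 CPM centred within each organ over the 15 libraries. These values describe the same libraries and carry no test. Srxn1 was nearest to Rnh1, at 0.0402, and Txnrd1 to Srxn1, at 0.0639, the only members of which one was among the 2 nearest genes of another. Gpx4 was nearest to Bsg (0.0561), a chaperone of lactate transporters, and Gclm to Gm5559 (0.115). Gpx3 was nearest to Pth1r (0.181), the parathyroid hormone receptor, and Slc7a11 to Hk3 (0.239), a hexokinase of myeloid cells. Acsl4 was nearest to Rock2 (0.130), Nqo1 to Gstp-ps (0.149), Gclc to Gsdme (0.193), and Hmox1 to F3 (0.206), tissue factor.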

How the data were processed

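Poly(A) RNA libraries without strand information were sequenced by Novogene. The authors' table, as deposited, gives whole-number read counts per gene, not normalized, and FPKM values that the authors scaled by gene length and depth. The submitters' processing notes name GRCm39 and DESeq2. The aligner and counter are not given in the sources used here. The authors' fold changes and p-values in the same table were not used. Samples were grouped by title. A line in the sample descriptions that disagrees with the titles was left aside.

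Counts were analysed in R 4.3.3 with edgeR 4.0.16 (filterByExpr with minimum count 10 and minimum total 15, TMM scaling, glmQLFit and glmQLFTest), in 1 fit of 9 kidney libraries, 1 of 6 lung libraries, and 1 of 12 for kidney minus lung, with Benjamini-Hochberg adjustment over all genes tested. The standard error is the log2 fold change over the square root of F. DESeq2 1.42.0 was an alternative, and the scripts were tested on simulated data. Total counts per library (25913969 to 38924788) limit precision mainly for Slc7a11, and intervals and floors cover counting error only. No label ties a library to its own mouse, so p-values measure the spread between these samples. No pair of replicates agreed within sampling noise (chi-square of 7.15 to 98.6 per gene).

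The members and lists were chosen with earlier results of these data known. Named besides the members were Nfe2l2, Keap1, up to 3 called genes per list and comparison with the largest change and a mean of at least 1 CPM, and the 2 genes most like each member (log2 CPM with a pseudocount of 0.5). Sod3, Sephs2 and Tfrc fall under that rule. A gene that this rule also names is not reported here. Alternatives were other scalings, DESeq2, filters, thresholds, a replicate block, 2-group fits and leaving out libraries.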

Additional observations from a re-analysis of the deposited data

Results flagged for a closer look

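The effect of LepAb differed between kidney and lung for 4 of the 10 genes, by the test of the difference itself in the edgeR fit of 12 libraries, where 7.12% of all genes did. The log2 difference, kidney minus lung, was 1.84 for Gpx3 (edgeR adjusted p = 0.00445), which was higher in each LepAb kidney and lower in each LepAb lung than in the IgG libraries of that organ. It was 0.96 for Gclm (edgeR adjusted p = 0.0348), where the kidney effect was 0.51 and the lung effect −0.42. It was 0.77 for Srxn1 (edgeR adjusted p = 0.0429), where the kidney effect was 0.0055 and the lung effect −0.73. It was −1.72 for Slc7a11 (edgeR adjusted p = 0.0368), where the kidney effect was −2.24 and the lung effect −0.48. The calls of Gclm, Srxn1, and Slc7a11 were lost in 9, 11, and 10 of the 12 fits with 1 library left out. Those of Gclm and Srxn1 were also lost under library-size scaling. With the replicate number as a block 1 call was left. Without both IgGK libraries high in adrenal cortex genes, IgGK replicate 3 stands alone in its group, and calls cannot be judged. The values were then 1.87 (Gpx3), 1.01 (Gclm), 0.80 (Srxn1), and −1.70 (Slc7a11). The 2 models also differ in agent, dose days and time of collection, so organ and model cannot be told apart.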

How the results depend on the processing

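Over 460 member values under other settings, 401 kept their direction and call, and over 450 with 1 library left out, 386 did. A total of 31 values took the other direction, and 0 of these had been called. Counts of called members changed as follows, each with the share of all genes called in brackets. With no fold threshold, IgGK against WTK gave 8 (53.1%), LepK against IgGK 6 (20.5%), and LepK against WTK 4 (38.6%). Both counts against WTK include Slc7a11, whose difference from WTK was partly fixed by the filter. Upper-quartile scaling gave 1 (22.4%) in LepK against WTK. In the lung DESeq2 gave 3 (11.98%) and no filter on low counts 5 (7.66%). For kidney minus lung, no filter gave 7 (7.12%). Leaving out both IgGK libraries high in adrenal cortex genes was an alternative chosen after seeing the data. It left IgGK replicate 3 alone in its group, so its counts are not given. The causes were not tested.

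With 1 library left out, the counts ran from 1 to 3 for LepK against WTK, from 0 to 6 for LepL against IgGL (6 only without IgGL replicate 1), and from 1 to 6 for kidney minus lung.

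Whether the replicate numbers pair the libraries could not be decided from 3 libraries per group. Deviations of same-numbered libraries correlated at −0.0937 to 0.135 (WTK and IgGK) and −0.0722 to 0.447 (IgGK and LepK). They correlated at −0.131 to 0.123 (WTK and LepK) and −0.214 to 0.216 (IgGL and LepL). Other-numbered libraries ran, in the same order, from −0.220 to 0.239, −0.459 to 0.134, −0.210 to 0.196 and −0.141 to 0.305. In IgGK and LepK the same-numbered values of replicate 1 (0.447) and replicate 2 (0.385) were the highest. With the replicate number as a block, edgeR called 0 members in the lung (5 at an unadjusted p under 0.05, and Gpx3 edgeR adjusted p = 0.0705) and 1 for kidney minus lung, and the kidney counts were 4, 3 and 2 as without it.

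Directions turned as follows. For IgGK against WTK, Nqo1 was −0.0030 under RLE scaling and by DESeq2 and −0.15 without both IgGK libraries, where Gclc was −0.011. Library-size scaling gave 0.28 for Srxn1 and 0.24 for Txnrd1. For LepK against IgGK, Hmox1 and Gclc were 0.033 and 0.034 without both IgGK libraries, Gclc 0.011 under the block, and library-size scaling gave −0.18 for Srxn1 and −0.10 for Txnrd1. For LepK against WTK, library-size scaling gave 0.018 (Gclm), 0.10 (Srxn1), 0.14 (Txnrd1) and 0.18 (Gpx4), and for kidney minus lung −0.034 (Nqo1) and −0.045 (Gpx4). With 1 library left out, Nqo1 ran from −0.058 to 0.077 in IgGK against WTK. Gclc ran from −0.22 to 0.26 in IgGK against WTK, from −0.24 to 0.25 in LepK against IgGK and from −0.088 to 0.22 in LepK against WTK. Srxn1 ran from −0.032 to 0.044 in LepK against IgGK. Depth limits Slc7a11 in WTK, where 6 counts in 3 libraries set the size of its fold change.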
